A study of Mus musculus with 14 samples.

Results

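The genes described here are 8 genes known for their expression in germinal centre B cells: Mef2b, Rgs13, S1pr2, Gcsam, Nuggc, Bcl6, Lmo2 and Basp1. They were found by symbol in a table of 54532 genes, all 8 were present, and all 8 were among the 15915 genes that passed the filter on low counts. The choice was made with results of these libraries in view: Mef2b, Rgs13, S1pr2 and Gcsam had been seen to be lower after radiation in the cells titled Tert+. For that contrast the values are therefore given as a description, and nothing is read from how many of these genes lay past a threshold. All 8 were chosen with earlier results of these data known, so counts of them in the Tert- contrast are a description too.

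RNA of sorted mouse submandibular gland cells, from a salivary gland below the jaw, was sequenced in 14 libraries. All groups carried the alleles TertCreERT2/+ and Rosa26LSL-tdTomato/+, in which an inducible Cre recombinase (CreERT2) made from the Tert locus can switch on the red reporter tdTomato. All cells were sorted as EpCAM+ and DAPI-. tdTomato+ cells are called Tert+ and tdTomato- cells Tert-, names that stand for the reporter and not for the level of Tert RNA. The groups were Tert+ without radiation (n = 3), Tert- without radiation (n = 3), Tert+ after 15 Gy of radiation, or RT (n = 4), and Tert- after 15 Gy (n = 4). The mice were adults, and neither an exact age nor the time between RT and sorting is given in the labels. Every control library therefore also carried the Cre and the reporter. A further label for the cell type gives the opposite population in 14 of 14 libraries, so each direction between Tert+ and Tert- rests on the titles. Whether each replicate is a different animal is not in the labels, and the spread behind every p-value is that between libraries, which may be technical.

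Total counts ran from 9220126 to 15943597 in the 6 libraries without RT and from 5520412 to 11642156 in the 8 libraries after RT. All libraries after RT also carry higher library numbers, so RT and library order cannot be told apart. B cell transcripts were abundant in these EpCAM-sorted cells: the median over 14 libraries was 1918 CPM per kilobase of gene for Cd79a and 273 for Ms4a1, against 21.4 for the sort marker Epcam and 25.3 for the keratin Krt8. Gland transcripts were abundant too. The keratin Krt18 was at 65.5, and the salivary acinar cell genes Dcpp3 and Dcpp2 were at 3765 and 1896 CPM per kilobase. CPM is the usual count unit relative to library size, here after scaling the libraries by TMM, a trimmed mean of ratios. The summed level of 11 B cell identity genes was 0.979% to 1.41% of counts in Tert+ without RT, 0.886% to 1.41% in Tert- without RT, 1.07% to 1.26% in Tert+ after RT and 1.02% to 1.08% in Tert- after RT. In the same order, 10 acinar cell genes summed to 0.279% to 3.28%, 0.4065% to 1.91%, 0.425% to 2.66% and 0.397% to 1.45%.

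Germinal centres are structures in lymphoid tissue in which B cells activated by antigen divide, mutate their antibody genes and compete for help from T follicular helper cells. The transcription factor BCL6 holds B cells in this state by repressing genes of the cell cycle brake, of the DNA damage response and of plasma cell formation, and MEF2B activates Bcl6 there. S1PR2 keeps the cells within the structure through the G protein G alpha 13, while RGS13 and GCSAM limit or tune their motility and signalling.

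Mef2b, Rgs13, Bcl6 and Basp1, 4 of the 7 genes other than Nuggc, fell after RT in Tert- cells, by edgeR's quasi-likelihood test with a Benjamini-Hochberg adjusted p threshold of 0.05. Among all genes tested in that comparison, 0.804% passed in the lower direction. The genes were chosen with earlier results of these data known, so this count is a description as well. Nuggc also lay past the threshold, but it passed the filter on low counts only through the libraries without RT, where it is high, so it is not counted. In Tert+ cells 7 of 8 lay past the same threshold in the lower direction, where 0.873% of all genes did, but that contrast was used to choose genes and nothing is read from the count. The 8 genes had a median log2 fold change of -3.94 in Tert+ and -3.01 in Tert-, beside medians of 0.00 and -0.02 over all genes tested and of 0.02 and -0.10 over the 11 B cell identity genes. Without Nuggc the medians of the other 7 were -3.89 and -2.98. The libraries of the compared groups did not overlap for 8 of 8 genes in Tert+, where 8.25% of all genes had all RT libraries lower, and for 7 of 8 in Tert-, where 9.22% did (7 of 7 and 6 of 7 without Nuggc). These are bulk libraries, in which fewer cells of a type and less RNA per cell cannot be told apart.

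**Figure D1:**
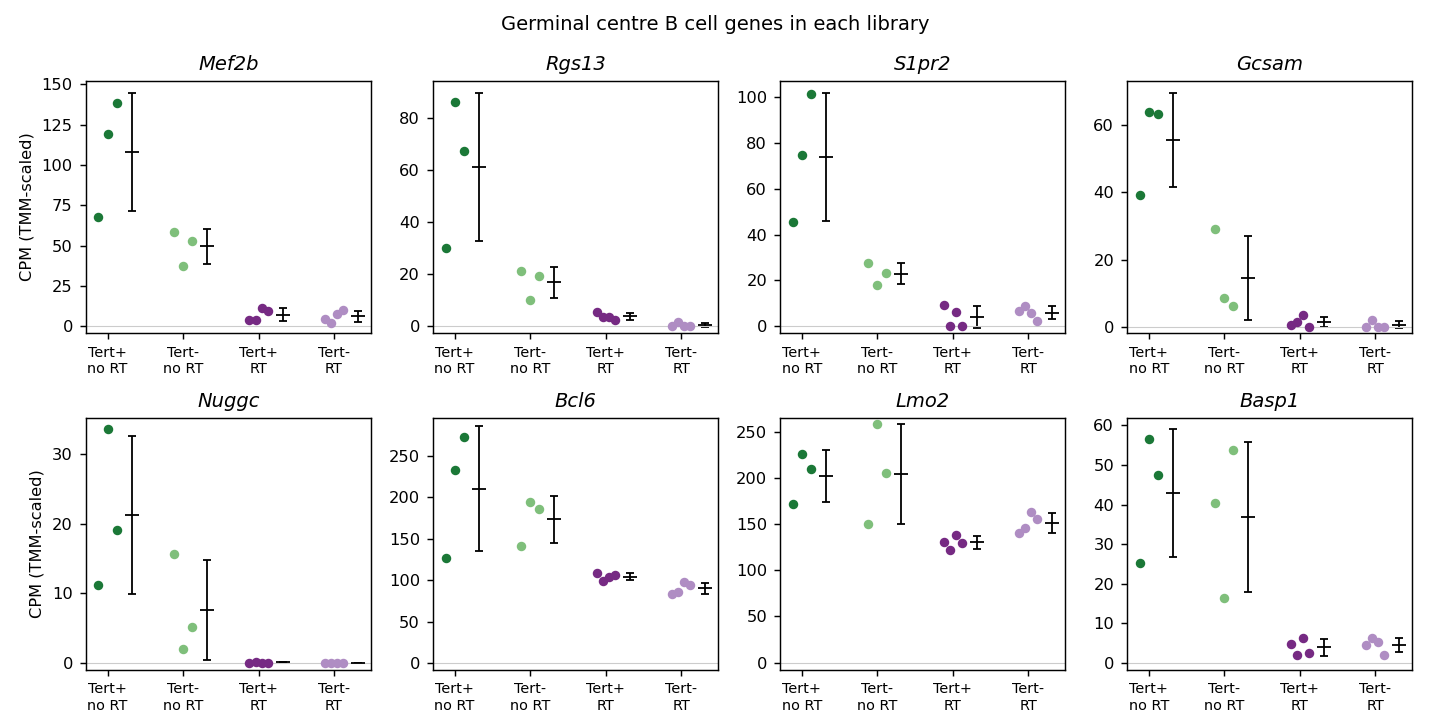
Level of each of the 8 genes in every library, in TMM-scaled CPM on a linear axis; each point is 1 library, and the bar beside each group is its mean with SD (n = 3 without RT, n = 4 after RT). Mef2b, Rgs13, S1pr2, Gcsam, Nuggc and Basp1 lie near 0 after RT in both populations, while Bcl6 stays between 83.1 and 109 CPM and Lmo2 between 122 and 163 CPM.

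Mef2b (ENSMUSG00000079033, chromosome 8, 70139711 to 70167488 on mm10, plus strand) encodes a MADS-box transcription factor. In Tert+ cells without RT it measured 67.6, 119 and 138 CPM in replicates 1 to 3, and in Tert- cells 58.2, 37.6 and 53.0 CPM. After RT it measured 4.18, 4.04, 11.5 and 9.50 CPM in the 4 Tert+ libraries and 4.72, 2.21, 7.80 and 10.01 CPM in the 4 Tert- libraries. Every RT library was lower than every library without RT. In Tert- cells Mef2b fell by 2.98 on the log2 scale (SE 0.46, edgeR adjusted p = 0.0120), and it passed the threshold in each of 14 fits that left out 1 library. The log2 fold change in Tert+ was -3.89 (SE 0.46). Relative to B cell transcripts the picture had the same direction: per 10000 counts of the B cell identity genes there were 86.8 ± 15.6 Mef2b counts in Tert+ without RT and 6.20 ± 2.998 after RT, and 45.4 ± 19.6 and 5.81 ± 3.20 in Tert- (SD, n = 3 and 4). The gene's span overlaps that of Borcs8 on the same strand over 7609 bases, and how shared reads were counted is not given in the sources used here. Borcs8 measured 32.3 to 72.7 CPM over the 14 libraries and so did not share Mef2b's low values after RT.

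Promoter windows of Mef2b, Bcl6 and S1pr2 are shown for the motifs other than the GC box found in them, and were chosen after that search. RefSeq promoter windows (build GRCm38.p6, the assembly of mm10) were matched for 6 of the 8 genes, with 7 windows in all, and the 250 bases before each start were searched on both strands. The motifs were the octamer ATTTGCAT bound by OCT factors, the CRE TGACGTCA, the palindrome TTCNNNGAA of STAT and BCL6 type sites, the PU.1 core GAGGAAGT, the E-box CAGCTG, the GC box GGGCGG, the TATA box TATAAA and the MEF2 consensus, of which the last can overlap a TATA box. GC boxes, present in 32.7% of all windows, were found in the windows of Mef2b, Bcl6 and Basp1 and are not in capitals. The windows of Rgs13 and Gcsam held no match. The Mef2b window, chr8:70152511-70152760 on the plus strand, lies inside the gene's span and over no annotated exon, and the capitals mark an octamer on the minus strand, 85 to 78 bases before the start.

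Mef2b: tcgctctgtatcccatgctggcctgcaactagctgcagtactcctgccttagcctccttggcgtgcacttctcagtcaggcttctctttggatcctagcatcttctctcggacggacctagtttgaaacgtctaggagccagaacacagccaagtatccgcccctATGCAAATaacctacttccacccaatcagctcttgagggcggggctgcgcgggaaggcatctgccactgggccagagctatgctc

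The octamer was present in 1.601% of 32851 windows of the same length. A match is a description of these letters and says nothing of binding.

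Among Mef2b's relatives no change passed the test. Of 7 genes of the MEF2 list (the paralogues Mef2a, Mef2c and Mef2d and 4 histone deacetylases that bind them), 0 passed the edgeR threshold after RT in either population, where 1.98% of all genes passed in Tert+ and 1.62% in Tert-. Their values had median log2 fold changes of 0.15 in Tert+ and 0.19 in Tert-. Mef2c, a paralogue that B cells use at all stages, measured 888 ± 17.0 CPM in Tert+ without RT and 951 ± 71.2 CPM after RT, and 789 ± 117 and 898 ± 51.9 CPM in Tert-. Mef2d measured 107 ± 63.3 and 165 ± 26.9 CPM in Tert+ without and after RT. Replicate 1 without RT stood apart for Mef2d in both populations, at 180 CPM in Tert+ and 143 in Tert-, with 63.5 to 78.9 CPM in the other 4 libraries without RT.

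Bcl6 (ENSMUSG00000022508, chromosome 16, 23965052 to 23988852, minus strand) differed less than Mef2b. Its levels without RT were 127, 233 and 273 CPM in Tert+ and 141, 194 and 186 CPM in Tert-. After RT they were 109, 98.8, 104 and 106 CPM in Tert+ and 83.1, 85.2, 97.9 and 93.8 CPM in Tert-. The groups did not overlap in either population, and the 8 RT libraries spanned a narrow range. In Tert- cells Bcl6 fell by 0.95 on the log2 scale (SE 0.20, edgeR adjusted p = 0.0327). That call was lost without any 1 of 7 libraries (Tert- without RT replicates 2 and 3, each of the 4 Tert- RT libraries, and Tert+ without RT replicate 2), with adjusted p between 0.00877 and 0.132 over the 14 fits, and with libraries scaled to the B cell identity genes (0.0631). In Tert+ the log2 fold change was -1.01 (SE 0.20).

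Bcl6 has RefSeq windows for 2 starts on the minus strand, the upstream one at chr16:23988853-23989102 and the other, inside the gene's span and over no annotated exon, at chr16:23981284-23981533. The capitals mark each match to TTCNNNGAA, which was found once in the first window and 3 times in the second.

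Bcl6 upstream start: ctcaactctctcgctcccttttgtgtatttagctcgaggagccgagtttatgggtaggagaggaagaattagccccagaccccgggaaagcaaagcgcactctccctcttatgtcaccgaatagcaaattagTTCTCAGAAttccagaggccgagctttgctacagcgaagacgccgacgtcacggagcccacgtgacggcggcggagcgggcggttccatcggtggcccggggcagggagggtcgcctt
Bcl6 internal start: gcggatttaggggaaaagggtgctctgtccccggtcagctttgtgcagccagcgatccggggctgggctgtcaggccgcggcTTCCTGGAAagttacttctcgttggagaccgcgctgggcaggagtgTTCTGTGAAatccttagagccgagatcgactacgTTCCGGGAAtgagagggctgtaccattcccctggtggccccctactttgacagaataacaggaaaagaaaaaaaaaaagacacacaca

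That palindrome was present in 7.02% of the windows of this length. BCL6 is known to repress its own gene, which is why these windows are printed; no binding was measured here.

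Of 15 tested genes known to be repressed by BCL6, 2 rose and 0 fell in Tert+ after RT, and 1 rose and 1 fell in Tert-, by the same edgeR threshold. Among all genes, 1.11% passed upwards and 0.873% downwards in Tert+, and 0.817% and 0.804% in Tert-. Cdkn1b, which encodes the cell cycle inhibitor p27, rose in both: from 11.9 ± 2.46 to 32.3 ± 8.27 CPM in Tert+ (edgeR adjusted p = 0.0159) and from 15.0 ± 2.45 to 50.1 ± 4.22 CPM in Tert- (adjusted p = 0.0100). The Tert+ call for Cdkn1b was lost without Tert+ no RT replicate 2 (0.0547) or replicate 3 (0.0819). Cdkn1a, which encodes the inhibitor p21 and is also a known target of the DNA damage response, rose from 14.3 ± 3.19 to 62.1 ± 8.44 CPM in Tert+ (edgeR adjusted p = 0.0400), a call lost without any 1 of 10 libraries (adjusted p up to 0.157). In Tert- it measured 47.5 ± 50.1 and 84.0 ± 10.7 CPM and did not pass; the first mean rests on Cdkn1a in replicate 1 (105 CPM), beside 16.96 and 20.3 CPM in the other two. Ccnd2, a cyclin that promotes division, fell in Tert- from 148 ± 44.6 to 68.7 ± 11.2 CPM (edgeR adjusted p = 0.0376), and lost the call without any 1 of 8 libraries (adjusted p up to 0.117). None of 10 BCL6 corepressor genes passed after RT; Ncor1 measured 241 ± 38.7 and 298 ± 38.1 CPM in Tert+ without and after RT, and Mta3 86.8 ± 5.09 and 88.4 ± 9.52 CPM.

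Lmo2 (ENSMUSG00000032698, chromosome 2, 103957986 to 103981878, plus strand) encodes an adaptor that bridges transcription factors and is a germinal centre marker also used outside B cells. It measured 171, 225 and 210 CPM in Tert+ and 150, 258 and 205 CPM in Tert- without RT. After RT it measured 130, 122, 138 and 129 CPM in Tert+ and 140, 145, 163 and 155 CPM in Tert-. The groups did not overlap in Tert+ and did overlap in Tert-, where replicate 1 without RT was within the RT range. Its log2 fold change in Tert- was -0.44 (95% interval -0.78 to -0.09, edgeR adjusted p = 0.161), and without that replicate 1 it was -0.60 with an adjusted p of 0.0271, over a range of 0.0271 to 0.553 in the 14 fits. In Tert+ the log2 fold change was -0.64 (SE 0.16). Among 6 tested paralogues and partners of LMO2, Tcf3 passed in Tert+ and 0 passed in Tert-. An antisense gene, 4931422A03Rik, overlaps Lmo2 and measured 0.524 to 11.7 CPM; reads of the pair cannot be told apart if the counting ignored strand, which is not given in the sources used here.

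S1pr2 (ENSMUSG00000043895, chromosome 9, 20962361 to 20976781, minus strand) encodes the sphingosine 1-phosphate receptor of germinal centre B cells. It measured 45.3, 75.0 and 101 CPM in Tert+ without RT and 27.4, 18.01 and 23.4 CPM in Tert-. After RT it measured 9.41, 0, 6.14 and 0.0855 CPM in Tert+, the last from 1 read, and 6.53, 8.95, 5.69 and 2.07 CPM in Tert-. The RT libraries lay below the others in both populations, and the Tert+ RT libraries were split between a pair with 45 and 108 reads and a pair with 0 and 1. In Tert- the log2 fold change was -1.99 (95% interval -3.86 to -0.13) and missed the threshold (edgeR adjusted p = 0.233, and 0.135 to 0.425 when each library was left out). In Tert+ it was -4.21 (SE 0.93). The difference between the RT effects, Tert+ minus Tert-, was -2.22 (95% interval -4.88 to 0.43, edgeR unadjusted p = 0.0950, adjusted p = 1.00), so the effects were not shown to differ. That difference includes the Tert+ contrast on which S1pr2 was chosen, so nothing is read from its sign or size.

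The S1pr2 window, chr9:20976794-20977043 on the minus strand, is printed because it holds the only CRE found in the 7 windows, in capitals, 181 to 174 bases before the start; 1.546% of all windows hold one.

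S1pr2: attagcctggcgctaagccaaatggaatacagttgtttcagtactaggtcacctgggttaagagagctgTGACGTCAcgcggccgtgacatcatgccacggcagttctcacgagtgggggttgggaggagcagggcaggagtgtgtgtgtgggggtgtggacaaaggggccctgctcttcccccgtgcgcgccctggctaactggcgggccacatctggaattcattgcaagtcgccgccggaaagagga

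Of 12 other tested genes of the sphingosine 1-phosphate and G alpha 13 pathway, 0 passed after RT in either population. Among all genes, 1.98% passed in Tert+ and 1.62% in Tert-. Negative log2 fold changes were found for 10 of the 12 in Tert+ and 8 in Tert-, with medians of -0.41 and -0.37. S1pr1, the receptor with which lymphocytes leave lymphoid tissue, measured 347 ± 44.1 and 360 ± 46.4 CPM in Tert+ without and after RT, and 317 ± 44.9 and 329 ± 53.8 CPM in Tert-. S1pr4 measured 177 ± 36.1 and 114 ± 22.01 CPM in Tert+, and S1pr5, a receptor best known from natural killer cells, 6.58 ± 5.29 and 0.218 ± 0.436 CPM. Arhgef1, which carries the G alpha 13 signal to RhoA, measured 521 ± 31.6 and 508 ± 30.01 CPM in Tert+, and Rhoa 416 ± 27.3 and 411 ± 68.3 CPM.

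Rgs13 (ENSMUSG00000051079, chromosome 1, 144138654 to 144177372, minus strand) encodes a protein that shortens G protein signals of chemokine receptors. It measured 29.9, 85.9 and 67.3 CPM in Tert+ without RT and 21.2, 10.2 and 19.2 CPM in Tert-. After RT it measured 5.66, 3.39, 3.68 and 2.48 CPM in Tert+ (65, 21, 27 and 29 reads). In Tert- after RT it had 0 reads in replicates 1, 3 and 4 and 14 reads in replicate 2 (1.82 CPM). All 4 groups were thus apart in order, from Tert+ without RT to Tert- after RT. In Tert- Rgs13 fell by 5.20 on the log2 scale (SE 0.88, edgeR adjusted p = 0.0146). The call was lost without Tert- no RT replicate 3 (0.0611) or Tert- RT replicate 3 (0.0560), when only the groups compared were fitted (0.0661) and with scaling to the B cell genes (0.0638), with log2 fold changes of Rgs13 from -5.18 to -4.80 in these 4 fits. In Tert+ the log2 fold change was -4.00 (SE 0.76). Of 10 other RGS genes tested, 0 passed after RT in either population. In each, 9 of 10 had negative values, with median log2 fold changes of -0.54 in Tert+ and -0.61 in Tert-. Over all genes tested the medians were -0.001 and -0.02. Rgs2 measured 144 ± 30.2 and 137 ± 21.1 CPM in Tert+ without and after RT.

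Gcsam (ENSMUSG00000022659, chromosome 16, 45610380 to 45622867, plus strand) encodes a signalling adaptor of germinal centre B cells. It measured 39.3, 64.0 and 63.5 CPM in Tert+ without RT, and 29.0, 8.39 and 6.09 CPM in Tert-, where replicate 1 stood well above the other two. After RT it had 4, 8, 25 and 0 reads in Tert+ and 0, 16, 0 and 0 reads in Tert-. Its RT libraries were below all others of the same population. In Tert- the log2 fold change was -4.79 (SE 1.20) and missed the threshold (edgeR adjusted p = 0.0551). It passed without Tert- RT replicate 2, the only Tert- RT library with Gcsam reads (0.0435), a fit in which that group held 0 reads. It also passed without Tert+ RT replicate 3 (0.0460) or 4 (0.0356), with a highest value of 0.146 over the 14 fits. Gcsam reached 10 reads in the 6 libraries without RT and in 2 of 8 after RT. Its pass of the count filter thus came mostly from the libraries without RT, and nothing is read from its p-values. In Tert+ the log2 fold change was -5.54 (SE 1.16).

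Nuggc (ENSMUSG00000061356, chromosome 14, 65598546 to 65648531, plus strand) encodes a nuclear GTPase named for the germinal centre. It had 91, 531 and 251 reads in Tert+ without RT and 213, 22 and 49 reads in Tert-, or 21.2 ± 11.4 and 7.58 ± 7.198 CPM (SD, n = 3). After RT a single read was found, in Tert+ replicate 2, and the other 7 libraries had 0. In Tert- its level after RT was at least 88.7-fold lower, taking 3 counts over the group as the floor. At the mean level without RT, 41.8 to 87.9 reads would have been expected in each Tert- RT library. In Tert+, 1 read against 873 gave a ratio of 861, with a counting interval of 154 to 34060 that covers counting error only. Nuggc reached 10 reads in the 6 libraries without RT and in 0 of 8 after RT, Gcsam in 2 of 8 and Rgs13 in 5 of 8. Nuggc thus passed the count filter only through the groups where it was high, and no p is given for it.

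Basp1 (ENSMUSG00000045763, chromosome 15, 25363277 to 25413764, minus strand) encodes a membrane-bound signalling protein best known from neurons. It measured 25.2, 56.5 and 47.4 CPM in Tert+ without RT and 40.5, 16.5 and 53.7 CPM in Tert-. After RT it measured 4.71, 1.94, 6.41 and 2.65 CPM in Tert+ and 4.53, 6.23, 5.42 and 1.98 CPM in Tert-. The groups did not overlap in either population. In Tert- Basp1 fell by 3.03 on the log2 scale (SE 0.50, edgeR adjusted p = 0.0146), a call lost without Tert- no RT replicate 3 (0.0822) or Tert- RT replicate 3 (0.0560). In Tert+ the log2 fold change was -3.45 (SE 0.50). Its relatives at the membrane did not pass: Marcksl1 measured 117 ± 22.0 and 75.6 ± 24.9 CPM in Tert+ without and after RT, and Marcks 24.4 ± 9.81 and 21.8 ± 4.42 CPM.

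**Figure D2:**
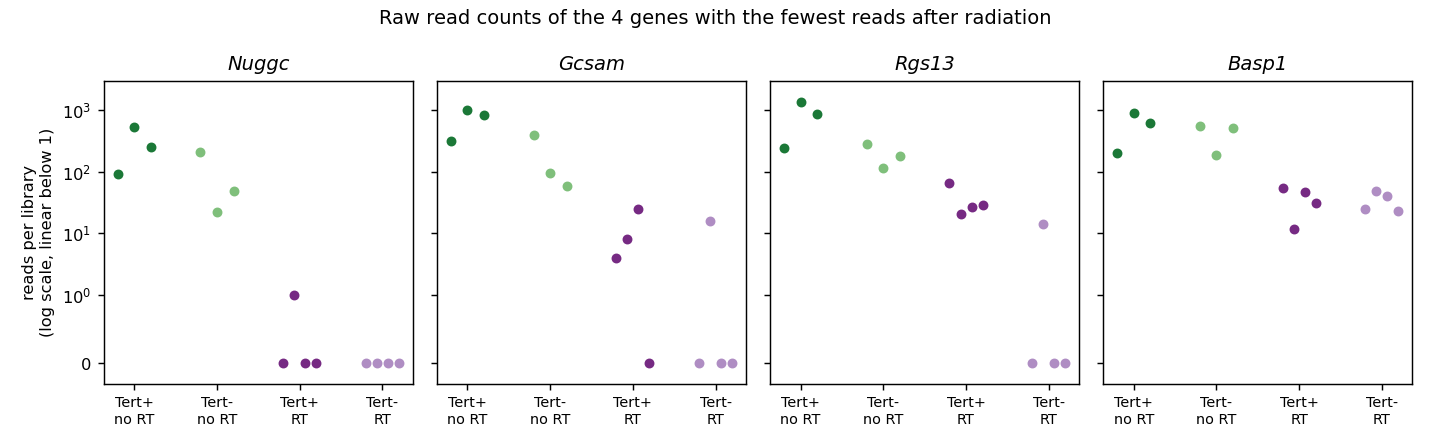
Reads per library, on an axis that is logarithmic above 1 and linear below, for the 4 genes of the 8 with the fewest reads after RT; each point is 1 library. Nuggc has 22 to 531 reads in the libraries without RT and a single read in all 8 after RT, while Basp1 keeps 12 to 54 reads in each library after RT.

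**Figure D3:**
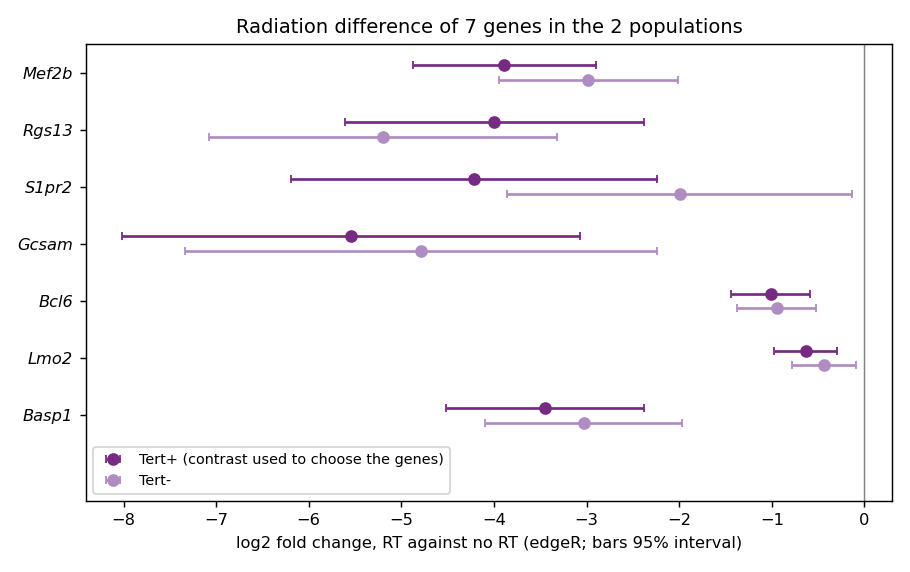
Log2 fold change of RT against no RT for 7 of the 8 genes in Tert+ (dark) and Tert- (light) cells. Points are edgeR estimates, with approximate 95% intervals calculated from the estimate and the F statistic of its test. Nuggc, with 1 and 0 reads after RT, is not drawn. Bcl6 and Lmo2 lie between -0.44 and -1.01, and the other 5 between -1.99 and -5.54, in both populations.

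Per kilobase of gene, Lmo2 had the highest mean of the 8 genes in Tert+ without RT (93.3 ± 12.9 CPM per kilobase), followed by Mef2b (77.2 ± 26.1), Rgs13 (36.9 ± 17.2), Bcl6 (31.4 ± 11.3), Basp1 (21.4 ± 8.01), Gcsam (16.2 ± 4.12), S1pr2 (9.28 ± 3.52) and Nuggc (7.49 ± 4.02). Each of these overlapped the next in order over the 3 libraries, so neighbours were not separated. After RT the order in Tert+ began with Lmo2 (60.0 ± 3.05), Bcl6 (15.6 ± 0.638) and Mef2b (5.20 ± 2.68), and these 3 did not overlap each other. In Tert- after RT the same 3 were 69.8 ± 4.78, 13.4 ± 1.05 and 4.404 ± 2.44 CPM per kilobase and did not overlap either. Mef2b was thus above Bcl6 without RT, with no overlap in Tert+ and with overlap in Tert-, and below it after RT.

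Between the populations without RT, 0 of 8 genes passed the threshold by edgeR, where 0.0377% of all genes did, and all 8 adjusted p were 1.00. Mef2b and Rgs13 had unadjusted p under the threshold by edgeR, where 4.5% of all genes did. The estimates for 7 of 8 genes were higher in Tert+. Mef2b, Rgs13, S1pr2 and Gcsam were higher in each Tert+ library than in any Tert- library, which was the case for 4.04% of all genes. The log2 difference was 1.13 (95% interval 0.14 to 2.11) for Mef2b, 1.85 (0.22 to 3.49) for Rgs13, 1.69 (-0.28 to 3.66) for S1pr2 and 1.94 (-0.35 to 4.23) for Gcsam. These 4 genes were chosen for high values in the same Tert+ libraries relative to RT, so nothing is read from these counts or from the unadjusted p. Lmo2 had a log2 difference of -0.02 (95% interval -0.38 to 0.35), and Basp1 of 0.22 (-0.85 to 1.29).

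After RT, 0 of 8 genes passed between the populations by edgeR, where 0.0126% of all genes did, and 1 had an unadjusted p under the threshold, as did 7.39% of all genes. That gene was Rgs13, with 142 reads in Tert+ and 14 in Tert-, a log2 difference of 3.06 (95% interval 1.23 to 4.88) and an adjusted p of 0.374. All 4 Tert+ libraries were above all 4 Tert- libraries for Rgs13 and Bcl6, as for 2.43% of all genes, and below them for Lmo2, as for 2.46%. By DESeq2 the adjusted p for Rgs13 was 0.0186, and without Tert- RT replicate 2 it was 0.0294 by edgeR. For Mef2b the log2 difference after RT was 0.22 (95% interval -0.69 to 1.13). No gene of the table passed the edgeR test of the difference between the RT effects, where 3.63% had an unadjusted p under the threshold, and 0 of the 8 genes had one. These comparisons use the Tert+ RT libraries with which Mef2b, Rgs13, S1pr2 and Gcsam were chosen, so nothing is read from these counts or p-values.

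Without RT, Tert+ replicate 1 was the lowest of its 3 libraries for 8 of 8 genes, and it had the fewest counts of the 3. The order differed in Tert-, where replicate 1 was the highest for 5 genes and the lowest for Bcl6 and Lmo2. Over the 6 libraries without RT, the 10 pairs among Mef2b, Rgs13, S1pr2, Gcsam and Nuggc had correlations of log2 CPM from 0.82 to 0.98, of which part is the difference between the populations. With the mean of each group removed, the same 10 pairs ran from -0.47 to 0.69 over the 14 libraries, and 6 of 10 were positive. Lmo2 had a positive correlation over the 6 libraries without RT, group means not removed, with 1 of the other 7 genes, Bcl6 (0.69). Over the 8 RT libraries the 10 pairs ran from -0.67 to 0.67, at levels of few or 0 reads. These are descriptions over libraries that share preparation and depth.

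Of 32 other genes raised in or needed by germinal centre B cells, Spib, Irf8 and Tcf3 were lower past the edgeR threshold in Tert+ after RT, and Stap1 was higher. Among all genes tested, 0.873% were lower and 1.11% higher in that comparison. Mybl1 also lay past the threshold, but it is not counted, for the reason given below. In Tert- 0 passed by edgeR. The median log2 fold changes of the 32 were -0.33 in Tert+ and -0.16 in Tert-. Mybl1, a relative of the Myb factor, had 104 reads in Tert+ without RT and 0 after RT, at least 34.2-fold lower against a floor of 3 counts over the group. It reached 10 reads in 5 of 6 libraries without RT and in 1 of 8 after RT, so it passed the count filter almost only through the libraries without RT, and no p is given for it. Spib, an ETS factor of B cells, fell in Tert+ from 454 ± 35.0 to 204 ± 57.6 CPM (edgeR adjusted p = 0.0289), and measured 360 ± 123 and 186 ± 35.6 CPM in Tert- (0.0554). Irf8, a factor that cooperates with it, fell in Tert+ from 1034 ± 235 to 622 ± 113 CPM (edgeR adjusted p = 0.0497), and Tcf3, an E protein, from 249 ± 24.8 to 157 ± 15.3 CPM (0.0428). Stap1, an adaptor of B cell receptor signalling, rose in Tert+ from 124 ± 15.9 to 186 ± 17.5 CPM (edgeR adjusted p = 0.0437). The Tert+ calls of Spib, Irf8, Tcf3 and Stap1 were each lost in several fits that left out 1 library. These included the fits without Tert+ no RT replicate 2 and without replicate 3 (edgeR adjusted p = 0.0873 to 0.241). In the dark zone list, genes of dividing germinal centre cells, 0 of 8 tested passed by edgeR in either population. Only 4 of these 8 had negative log2 fold changes in each population, with medians of -0.86 in Tert+ and -0.62 in Tert-. Their summed level was 549 ± 136 CPM without RT and 609 ± 70.9 CPM after RT in Tert+. In Tert- it was 545 ± 212 and 661 ± 66.3 CPM. Ccnd2, in Tert-, was the only 1 of 10 in the light zone list that passed.

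Markers of B cells as a whole and of other cells are given beside these results. Of the 11 B cell identity genes, 0 passed in Tert+ and 1 passed in Tert-, Btk, which rose from 151 ± 28.4 to 256 ± 25.0 CPM (edgeR adjusted p = 0.0299), a call lost without any 1 of 5 Tert- libraries (adjusted p up to 0.132). Cd79a measured 3366 ± 682 and 2960 ± 213 CPM in Tert+ without and after RT. Of 11 genes of resting and memory B cells 0 passed; Ccr7 measured 2667 ± 1200 and 3557 ± 357 CPM in Tert+. Of 8 plasma cell genes tested 1 fell in each population, Txndc5 in Tert+ from 264 ± 17.4 to 155 ± 39.7 CPM (edgeR adjusted p = 0.0463) and Jchain in Tert- from 44.3 ± 29.3 to 0.594 ± 0.713 CPM (0.0428), and both calls were lost without several single libraries (adjusted p up to 0.171 and 0.1245).

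T cell transcripts were present in all groups, with estimates in the same direction as those of the 8 genes. The 9 T cell genes summed to 237 to 675 CPM in Tert+ and 201 to 632 CPM in Tert- without RT, and to 110 to 383 and 92.8 to 188 CPM after RT. All 9 had negative log2 fold changes in both populations, with medians of -0.79 and -1.87, beside -0.001 and -0.02 over all genes tested. None of the 9 passed by edgeR. The 9 genes of T follicular helper cells, which also use Bcl6, summed to 514 to 731 and 464 to 705 CPM without RT and to 417 to 684 and 457 to 508 CPM after RT; 0 of 8 tested passed, Il21 had 0 reads in Tert+ without RT, and Ascl2 was at 0 in the other 3 groups. The part of T cells in the values of the 8 genes was not tested. Macrophage genes, 10 in all, differed between the populations: they summed to 126 to 286 CPM in Tert+ and 1668 to 2072 CPM in Tert- without RT, and to 106 to 210 and 275 to 1260 CPM after RT, and their part in the population differences was not tested. The 9 epithelial genes summed to 144 to 584, 221 to 503, 99.7 to 401 and 227 to 469 CPM in Tert+ and Tert- without RT and in Tert+ and Tert- after RT, with 0 passing by edgeR. Of the lists for follicular dendritic cells (6 tested), mast cells (4), tuft cells (4), endothelium (5) and acinar cells (10), 0 genes passed after RT in either population, and the tuft cell genes Pou2f3 and Il25 had 0 reads in all 4 groups. In the macrophage list Ms4a7 rose in Tert+ after RT (log2 fold change 2.56, edgeR adjusted p = 0.0372), and C1qc, Axl and Ms4a7 were the genes past the threshold between the populations without RT, lower in Tert+. The RT call of Ms4a7 was lost in 9 of 14 fits that left out 1 library (edgeR adjusted p up to 0.136) and that of C1qc between the populations also in 9 (up to 0.261), while Axl lost its call without Tert+ no RT replicate 2 or 3 (up to 0.0830) and Ms4a7 kept that one in all 14.

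**Figure D4:**
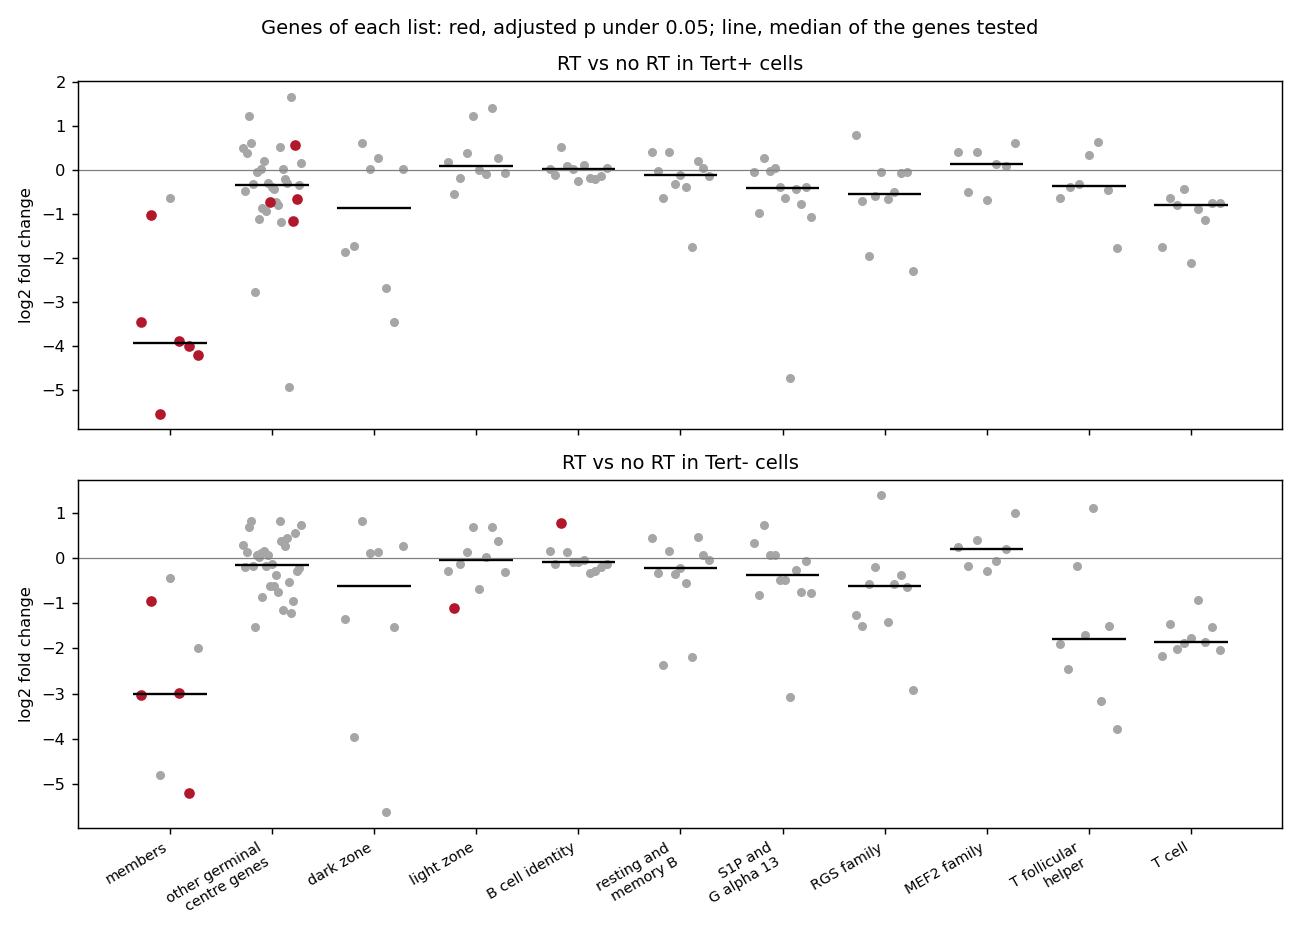
Log2 fold change of RT against no RT in Tert+ (top) and Tert- (bottom) cells for the genes of 11 lists; each point is 1 gene, red where the edgeR adjusted p is under 0.05, and the line is the median of all genes of the list that were tested. Genes with 3 or fewer reads in a group, among them Nuggc and Mybl1, are not drawn where this applies. The 8 genes, chosen on the Tert+ contrast, have medians of -3.94 and -3.01, and the B cell identity genes 0.02 and -0.10.

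Among 10092 other genes whose mean log2 CPM reached 1, those most like the 8 were ranked by the correlation over 14 libraries of log2 CPM with the mean standardised level of the 8. The highest was Nup93, a nuclear pore protein (r = 0.946), then Ube2m (0.934), Mcm5 (0.933), Asf1b (0.931), Fdft1 (0.931), Eno1b (0.927), Dbi (0.926), Ybx3 (0.924), Pphln1 (0.923) and Rnh1 (0.919). Mcm5, a subunit of the helicase that opens DNA for replication, measured 142 ± 16.7, 117 ± 8.56, 41.7 ± 6.11 and 53.8 ± 13.96 CPM in Tert+ and Tert- without RT and in Tert+ and Tert- after RT. Asf1b, a histone chaperone, measured 43.9 ± 13.4, 30.7 ± 8.56, 10.8 ± 3.53 and 11.8 ± 3.51 CPM in the same order. The likeness describes these 14 libraries, which share the split by RT, and no p is given.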

How the data were processed

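The deposited table gives whole-number read counts per gene, with no normalisation. Reads were aligned with HISAT2, with no version given, to mm10, per the submitters' processing notes. The counting program, its strand setting and its annotation are not given in the sources used here. The 8 genes and 23 gene lists were chosen with earlier results of these data known. Counts were scaled by TMM and tested with edgeR 4.0.16 (quasi-likelihood, 1 fit over 4 groups and 14 libraries, R 4.3.3) on 15915 genes that passed the filter on low counts (filterByExpr, minimum count 10), with p-values adjusted by Benjamini-Hochberg over those genes and a threshold of 0.05. The steps were tested on simulated data. Alternatives were DESeq2 1.42.0, its size factors in edgeR, limma 3.58.1 (voom), no filter, only the groups compared, scaling to the B cell identity genes, replicate blocks and leaving out each library. Named from each list were genes past the threshold in any comparison of 2 groups (at most 6), or else the 2 with the highest mean CPM; S1pr1, S1pr4, S1pr5, Cd79a, Ms4a1 and Krt8 were added after their values were seen. The floor for a fold against 0 reads was 3 counts over the group; 3 counts correspond to 0.190 to 0.544 CPM in 1 library. No 2 libraries of a group agreed within sampling noise. A gene of the lists was left out and is not reported here.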

Additional observations from a re-analysis of the deposited data

Results flagged for a closer look

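In 3 of 15 groups of 4 libraries examined, 1 library lay far from the others; chance flags about 1 in 20 groups of continuous values. That rate does not apply here, since in each of the 3 groups 3 libraries were at 0 and any read in the other one sets it apart. Rgs13 measured 1.82 CPM (14 reads) in Tert- RT replicate 2, and the other 3 Tert- RT libraries had 0. Gcsam measured 2.08 CPM (16 reads) in the same library, again with 0 in the other 3. Nuggc measured 0.162 CPM in Tert+ RT replicate 2, from 1 read, and the other 3 Tert+ RT libraries had 0.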

How the results depend on the processing

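Shared replicate numbers were not taken to pair the libraries, since not every pair of same-numbered libraries had a correlation of deviations over 0.1: over 7 pairs it ran from -0.05 to 0.12. The 2 over 0.1 were among the 3 pairs without RT, where replicate 1 of both populations stood apart together for some genes, such as Cxcr4 (300.2 and 305 CPM, against 53.9 to 63.4 in the other 4), so a shared source there cannot be told from these values. Same-numbered libraries of both populations also carried adjacent library numbers in each radiation state, and the correlations cannot exclude that they were paired. With a replicate block, and with Nuggc counted here throughout, 5 of the 8 genes passed after RT in Tert+ (7 without it), 5 in Tert- and 0 in the other comparisons. Scaled to the B cell identity genes, 4 passed in Tert+ and 3 in Tert- (5 without that scaling), the median of all genes between the populations after RT moved by more than 0.1 to -0.13, and lower calls made up 63.0% of all calls in Tert+, beside 44.1% with TMM, and 75.0% beside 49.6% in Tert-. Leaving out 1 library gave 3 to 8 in Tert+ (3 on leaving out Tert+ no RT replicate 2, Tert+ no RT replicate 3 or the RT replicate 2 of Tert+, and 4 on leaving out its RT replicate 3) and 2 to 6 in Tert- (2 on leaving out replicate 3 of either group). Between the populations after RT it gave 0 to 1, and DESeq2 gave 1, Rgs13; without RT, and for the difference of the RT effects, every alternative run gave 0. Apart from Nuggc, only Mef2b passed in Tert- on leaving out replicate 3 of either Tert- group. With the B cell scaling, Mef2b and Basp1 passed in Tert- apart from Nuggc. The causes were not tested. Over all genes, the main counts of 315, 258, 6, 2 and 0 (RT in Tert+, RT in Tert-, populations without and after RT, difference of effects) became 1057, 1198, 74, 109 and 12 with DESeq2, 482, 405, 26, 0 and 0 with voom and 27, 16, 4, 1 and 0 with the B cell scaling. With only the groups compared, the first 4 became 49, 88, 8 and 1. With no filter the counts were 294, 299, 16, 4 and 0, and with a replicate block 265, 257, 7, 2 and 0. Leaving out 1 library gave 21 to 507, 18 to 901, 1 to 13, 0 to 7 and 0 to 1. Some values that passed no test changed sign. Without RT, the Lmo2 difference between the populations (-0.02, log2) was 0.0367 with voom and 0.00807 with a replicate block within each radiation state, and without 1 library it ran from -0.21 to 0.18, and that of Basp1 (0.22) from -0.14 to 0.60. After RT, leaving out 1 library gave -0.52 to 0.0154 for Basp1 (-0.20), -0.15 to 6.61 for Gcsam (1.18) and -0.0694 to 0.55 for Mef2b (0.22). For the difference of the RT effects it gave -0.34 to 0.17 for Bcl6 (-0.07), -2.09 to 4.68 for Gcsam (-0.75) and -1.48 to 0.72 for Nuggc (0.25), which DESeq2 gave as -0.92 and voom as -1.65; with 0 or 1 read after RT, the Nuggc values depend on the prior count.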
